A study of Macaca mulatta with 4 samples.

Results

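The genes described here are the 9 that receive or limit the Hedgehog signal at and below the cell surface: the receptor PTCH1, the transducer SMO, the co-receptors BOC, CDON and GAS1, the ligand-binding protein HHIP, the transcription factors GLI2 and GLI3, and SUFU, which restrains the GLI factors. They were found by gene symbol among the 30807 genes of the deposited matrices, and each symbol matched 1 row. Their UMIs (unique molecular identifiers, each counting 1 captured RNA molecule) were read in barcodes with at least 500 genes. The question is which cells of the fetal cerebellum carry the parts needed to sense or limit Hedgehog, and whether that differed after exposure to lipopolysaccharide (LPS).

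The samples came from rhesus macaque fetuses with no genetic modification named in the labels. Nuclei of flash-frozen cerebellum were captured for 3′ single-nuclei RNA sequencing on the 10x Genomics platform, 1 library per fetus. The Control group was a female and a male fetus, both at 130 days of gestation, without intervention. The LPS group was a female fetus at 131 days and a male fetus at 133 days, each delivered 5 days after 1 mg of LPS was injected into the amniotic fluid. Every group of 2 thus held 1 female and 1 male, and the LPS fetuses were 1 to 3 days older. The controls received no injection, so the injection itself and LPS cannot be told apart. In the text, sets of 4 values are always in the order Control female, Control male, LPS female and LPS male.

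The libraries held 34282015 to 61665690 UMIs, and 32575 nuclei passed the filters on genes and mitochondrial UMIs, 6896 to 9254 per library. Median depth was 4506.5, 1882, 4063 and 2308.5 UMIs per nucleus, so that the male libraries were shallower than the female ones. The share of all UMIs that lay in nuclei was 73.9, 58.7, 74.0 and 38.7%. Of 23 clusters, 21 were named from marker lists and 2 were left unnamed, one of them a cluster of low UMI number that held 1915 nuclei of the LPS male library out of 2508. Class names stand for nuclei like that cell type. The Bergmann glia cluster scored 1.43 on the list of Bergmann glia and 1.41 on that of astrocytes, which is close to a tie. The cluster called migrating granule cells, with 5 of 9 granule markers raised, scored 1.16 on the granule list and higher, 1.22, on that of excitatory nuclear neurons, so its name is in doubt. The IL20RB cluster (1.22 against 1.16 on the same lists) and the Golgi cluster (2.98 against 2.90 for PAX2 interneurons) were near ties as well, and the endothelial cluster also had raised markers of mural cells. Of the barcode sequences, 110 occurred in more than 1 library.

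Hedgehog signalling works by release from inhibition. Without ligand, PTCH1 keeps SMO inactive and the GLI factors are held by SUFU or cut into repressors, of which GLI3 is the main source. When a ligand such as Sonic hedgehog binds PTCH1 together with BOC, CDON or GAS1, SMO becomes active at the primary cilium and GLI2 acts as an activator, while PTCH1, HHIP and GLI1 are themselves targets that rise with the signal, and PTCH1 and HHIP damp it. In the cerebellum the ligand is made by Purkinje cells and drives division of granule cell precursors in the external granule layer, and Bergmann glia also respond to it.

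The number of UMIs behind each gene, summed over all nuclei, set how finely it could be followed. GLI3 had 54715 UMIs, BOC 27251, SUFU 25616, PTCH1 21020, CDON 15015, SMO 9370, GLI2 8466 and HHIP 1622. GAS1, a membrane-anchored co-receptor, had 17 UMIs in all 4 libraries. The granule lineage, with 68.7% of the nuclei, supplied 75.3% of the GLI3 UMIs, 66.2% of those of GLI2 and 57.9% of those of PTCH1. It supplied 27.3% of the HHIP UMIs, and the 467 oligodendrocyte-lineage nuclei supplied 30.9% of them. No level is compared between genes here.

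**Figure D1:**
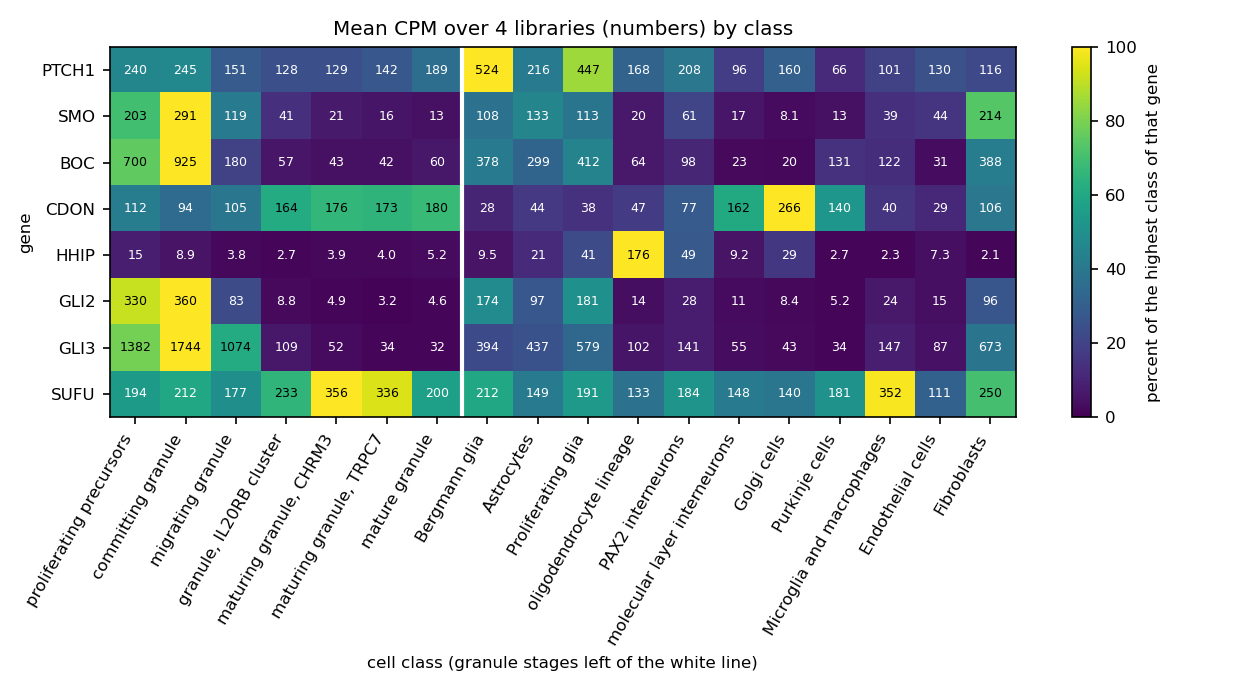
Mean level of 8 members in 18 classes, in CPM (UMIs of the gene scaled to the total UMIs of the class) over 4 libraries, printed in each square; colour gives the percent of the highest class of that gene and the 7 granule clusters stand left of the white line. SMO, BOC, GLI2 and GLI3 were highest in the committing granule cluster, PTCH1 in Bergmann glia, CDON in Golgi cells and HHIP in the oligodendrocyte lineage.

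PTCH1, the receptor that binds the ligand and holds SMO back, was found in every class compared. Its level in Bergmann glia was 356, 718.8, 400.2 and 622.5 CPM (UMIs of the gene scaled to the total of the class), with a mean of 524 ± 174 (SD, n = 4). Proliferating glia followed with 354, 531.6, 292.1 and 610.1 CPM. The ranges of both glial classes overlapped, although Bergmann glia were higher in 4 of 4 libraries.

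In the next class, the committing granule cells, PTCH1 stood at 245 ± 41.1 CPM, and the range over libraries did not overlap that of proliferating glia. From there down, each class overlapped the next. Astrocytes had 216 ± 68.5 CPM and Purkinje cells, the source of the ligand, the least of all with 65.5 ± 26.3 CPM. Proliferating precursors reached 295.7 CPM in the Control male, above the lowest value of proliferating glia.

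SMO, the transducer that PTCH1 inhibits, was highest in committing granule cells at 282.2, 307.7, 259.9 and 312.5 CPM. Fibroblasts had 202.7, 187.8, 183.3 and 284.4 CPM. Proliferating precursors had 212.4, 214.3, 166.2 and 218.2 CPM, which overlapped the range of the fibroblasts and lay above that of every class with a lower mean. In Golgi cells SMO rested on 14 UMIs and in Purkinje cells on 11, which left levels of 8.14 ± 6.09 and 13.3 ± 17.7 CPM.

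The co-receptors BOC and CDON were highest in different classes. BOC, an immunoglobulin-family receptor that presents ligand to PTCH1, was highest in the youngest granule clusters, with 821, 573.4, 679 and 725 CPM in proliferating precursors and 1061, 802.4, 930.5 and 904.5 CPM in committing cells. Proliferating glia, fibroblasts and Bergmann glia had mean levels of 412, 388 and 378 CPM with overlapping ranges. BOC was lowest in Golgi cells at 19.6 ± 6.59 CPM.

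CDON, the closest relative of BOC, was highest in Golgi cells at 251.9, 275.6, 237.8 and 300.6 CPM, and that range did not overlap the next class. The maturing and mature granule clusters followed at 173 to 180 CPM. In glia CDON was low, with 27.7 ± 19.3 CPM in Bergmann glia and 37.9 ± 12.3 CPM in proliferating glia. Fetus by fetus, Bergmann glia had 24.6, 15.6, 14.6 and 55.9 CPM.

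GAS1 was close to absent from these counts. The granule lineage held 15 of its 17 UMIs, a pooled level of at most 0.317 CPM by the exact 95% Poisson interval. Bergmann glia and astrocytes together held 0 UMIs, which allows up to 0.223 CPM, 3 counts of their total. These bounds cover counting error only. The co-receptors that could be followed in these counts were therefore BOC and CDON. Why GAS1 had so few UMIs was not tested.

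HHIP, a membrane protein that binds ligand and keeps it from PTCH1, had a distribution of its own. The oligodendrocyte lineage had 314.2, 77.2, 185.1 and 125.9 CPM, from 272, 24, 106 and 99 UMIs. The next class, PAX2 interneurons, had 66.9, 43.7, 75.5 and 9.81 CPM, below the oligodendrocyte lineage in 4 of 4 libraries and without overlap of the ranges. The SD over libraries was large in both classes, 102 and 29.4 CPM.

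Within the oligodendrocyte lineage, HHIP followed the myelin genes. This split was chosen after the class levels had been seen. In the 262 nuclei with UMIs of the precursor markers PDGFRA or CSPG4 and none of the myelin genes MAG or MOG, HHIP had 10.4, 45.5, 6.76 and 15.97 CPM. In the 107 nuclei with UMIs of both marker pairs it had 626.9, 225.4, 387.5 and 148.6 CPM. The 76 nuclei with MAG or MOG alone had 1040, 55.2, 423.8 and 249.6 CPM, from only 3 nuclei in the LPS female and 9 in the Control female. In each library, both groups with myelin genes were above the group with precursor markers alone. In the Control male, however, 55.2 CPM with MAG or MOG alone came from 3 UMIs in 15 nuclei. The 45.5 CPM with precursor markers alone came from 8 UMIs in 59 nuclei, too few to tell the levels apart. PTCH1 was higher in the nuclei with precursor markers alone, at 223 ± 67.1 CPM, than in those with both marker pairs, at 98.5 ± 32.1 CPM, in each library. In the nuclei with MAG or MOG alone PTCH1 had 171, 110.4, 211.9 and 94.2 CPM, lower than with precursor markers alone in 3 of 4 libraries and higher in the LPS female.

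**Figure D2:**
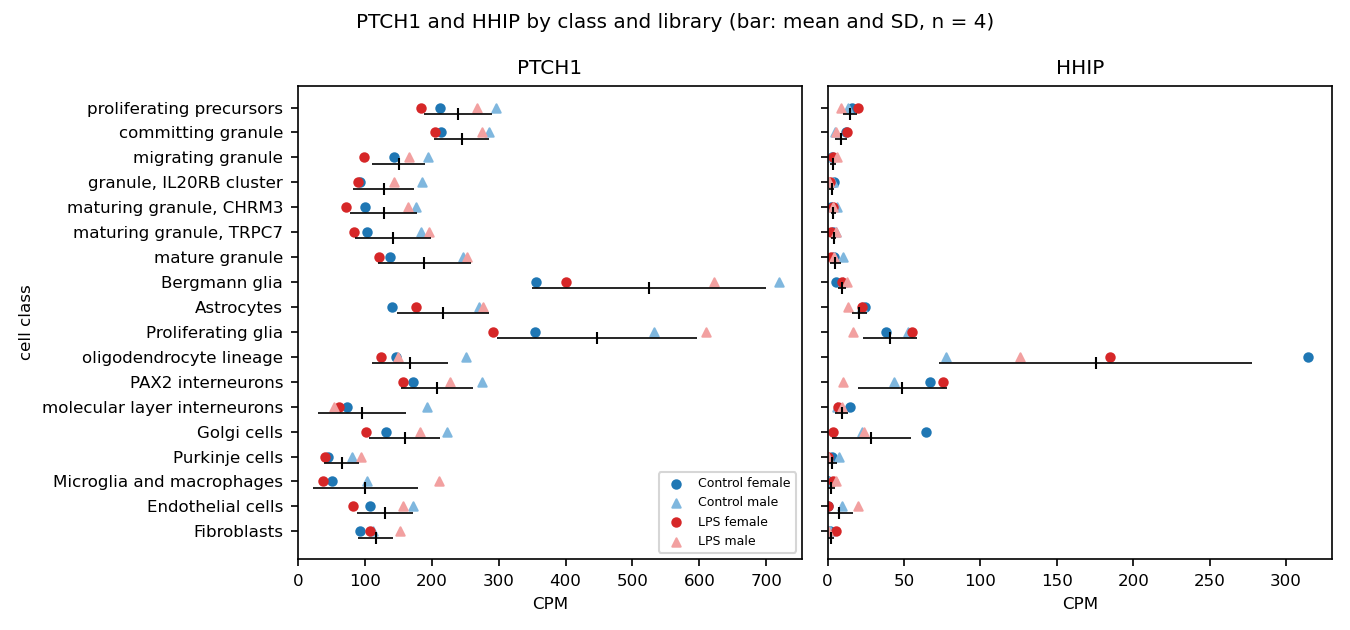
PTCH1 (left) and HHIP (right) in CPM by class; circles are female and triangles male libraries, blue Control and red LPS, and the black bar under each class is the mean and SD of 4 libraries. PTCH1 was found in all classes with Bergmann glia at 524 CPM, and HHIP stood at 176 CPM in the oligodendrocyte lineage and under 50 CPM elsewhere.

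GLI2, the main activating GLI factor, and GLI3, the main repressor form, were both highest in committing cells, followed by precursors. GLI2 had 207.5, 494.7, 175.3 and 443.6 CPM in proliferating precursors and 219.4, 547.1, 179.3 and 495 CPM in committing cells. GLI3 had 1450, 984, 1781 and 1313 CPM in precursors and 1859, 1380, 2186 and 1550 CPM in committing cells. For GLI3 the cluster called migrating came next, with a mean of 1074 CPM. Fibroblasts and glia followed, with means of 673 CPM in fibroblasts, 579 CPM in proliferating glia, 437 CPM in astrocytes and 394 CPM in Bergmann glia. For GLI2, proliferating glia had 181 ± 90.9 CPM, Bergmann glia 174 ± 88.2 CPM and fibroblasts 96.1 ± 79.2 CPM.

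Both factors were low in the maturing and mature granule clusters. RNA released from broken cells enters every droplet, and its share was estimated at 8.45 to 14.1% of the UMIs of mature granule cells. From that share and the level of GLI2 in near-empty droplets, 5.24 CPM of GLI2 would be expected in mature granule cells from free RNA, and 4.65 ± 4.22 CPM were counted, above the expected value in 2 of 4 libraries. For GLI3 the expected level was 36.1 CPM and the counted one 31.6 ± 17.7 CPM. GLI2 and GLI3 in mature granule cells were thus on average no higher than the level free RNA would give, GLI3 lying above it in 1 of 4 libraries.

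The same calculation left the young clusters far above free RNA. In proliferating precursors GLI2 was counted at 51.4 times and GLI3 at 31.0 times the level expected from it, each in 4 of 4 libraries. PTCH1 was counted at 10.4 times the expected level in mature granule cells. SMO, with 12.8 CPM against an expected 9.35 CPM there, stood near it.

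**Figure D3:**
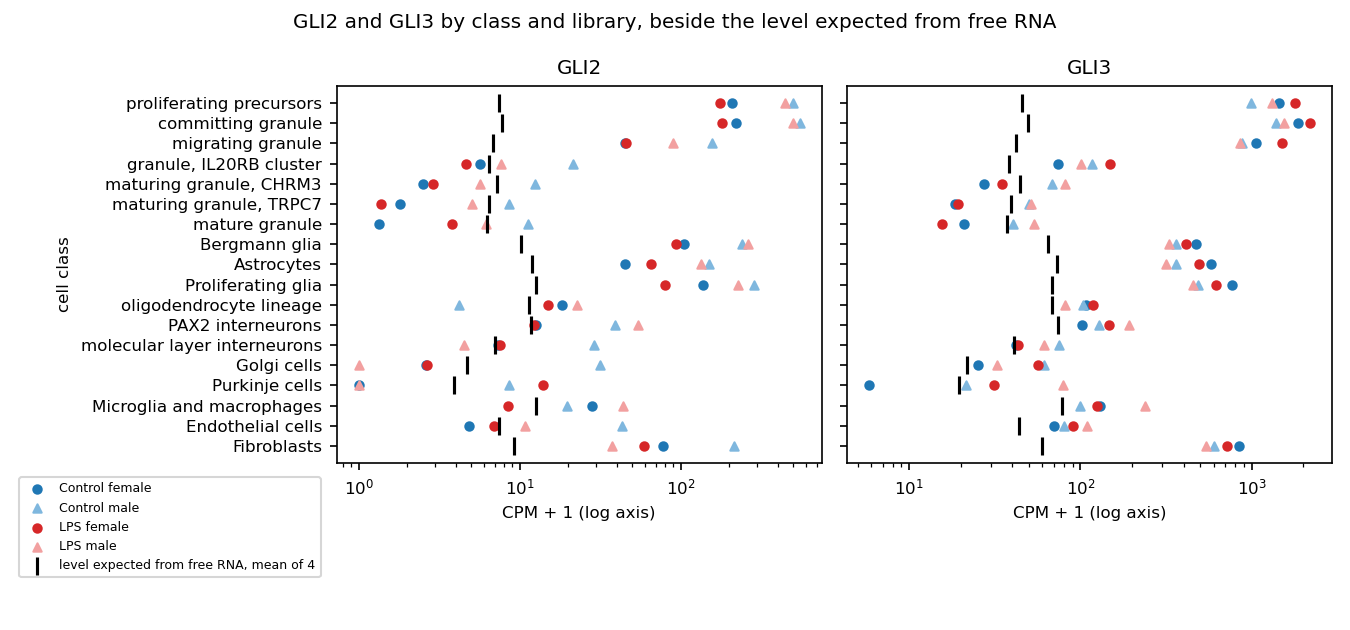
GLI2 (left) and GLI3 (right) by class on a log axis of CPM + 1, each point 1 library; the black tick is the level expected from free RNA, as the mean of 4 libraries. The maturing and mature granule points lie around the tick, while precursors, committing cells, glia and fibroblasts lie to its right.

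SUFU, which holds GLI factors in the cytoplasm and is needed for their repressor forms, varied less between classes. Its mean level ran from 111 CPM in endothelial cells to 356 CPM in the maturing granule cluster led by CHRM3, and microglia and macrophages had 289.6, 407.2, 304.7 and 404.8 CPM. Each class overlapped the next in the order of means.

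Along the granule lineage the members split into those that were low in mature cells and those that were not. Proliferating precursors were set against mature granule cells within each library, as the log2 ratio of CPM with a pseudocount of 1 CPM. GLI2 was higher in precursors by 6.11 ± 0.84 on the log2 scale (SD, n = 4), GLI3 by 5.55 ± 1.12, BOC by 3.95 ± 1.26 and SMO by 3.90 ± 0.30, each in 4 of 4 libraries. For GLI2, GLI3 and SMO the level in mature cells was at or near that of free RNA, and with free RNA subtracted the ratios were 8.23, 9.75 and 5.80. Little or no GLI2 and GLI3 was then left in mature cells. The size of their subtracted ratios therefore depends on the pseudocount.

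PTCH1 differed much less, with a log2 ratio of 0.39 ± 0.26 and precursors higher in 4 of 4 libraries. HHIP, at 1.43 ± 1.02, rested on 14.5 and 5.19 CPM. CDON ran against the others with a log2 ratio of -0.68 ± 0.10, precursors being lower in 4 of 4 libraries. SUFU, at -0.03 ± 0.16, differed by less than the spread between libraries. Among 9813 genes with at least 10 CPM in either stage, the median log2 ratio was 0.30, 3.91% of genes were above 3 and 0.703% above 5.

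GLI3 was still high in the cluster called migrating, where GLI2 was lower. This cluster scored higher on the list of excitatory nuclear neurons than on the granule list, as given above, so its place in the lineage is in doubt. There GLI3 still had 1057, 879.9, 1507 and 854 CPM, while GLI2 had 44.2, 154.8, 45.0 and 89.3 CPM. SMO had 119 ± 26.0 CPM and BOC 180 ± 16.9 CPM in that cluster. In the cluster led by IL20RB, which carried no stage name, GLI3 was at 109 ± 31.6 CPM and GLI2 at 8.84 ± 7.76 CPM. The clusters were made without the members and the other Hedgehog genes among the variable features, but they remain clusters of these same nuclei, so the order of levels is a description.

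**Figure D4:**
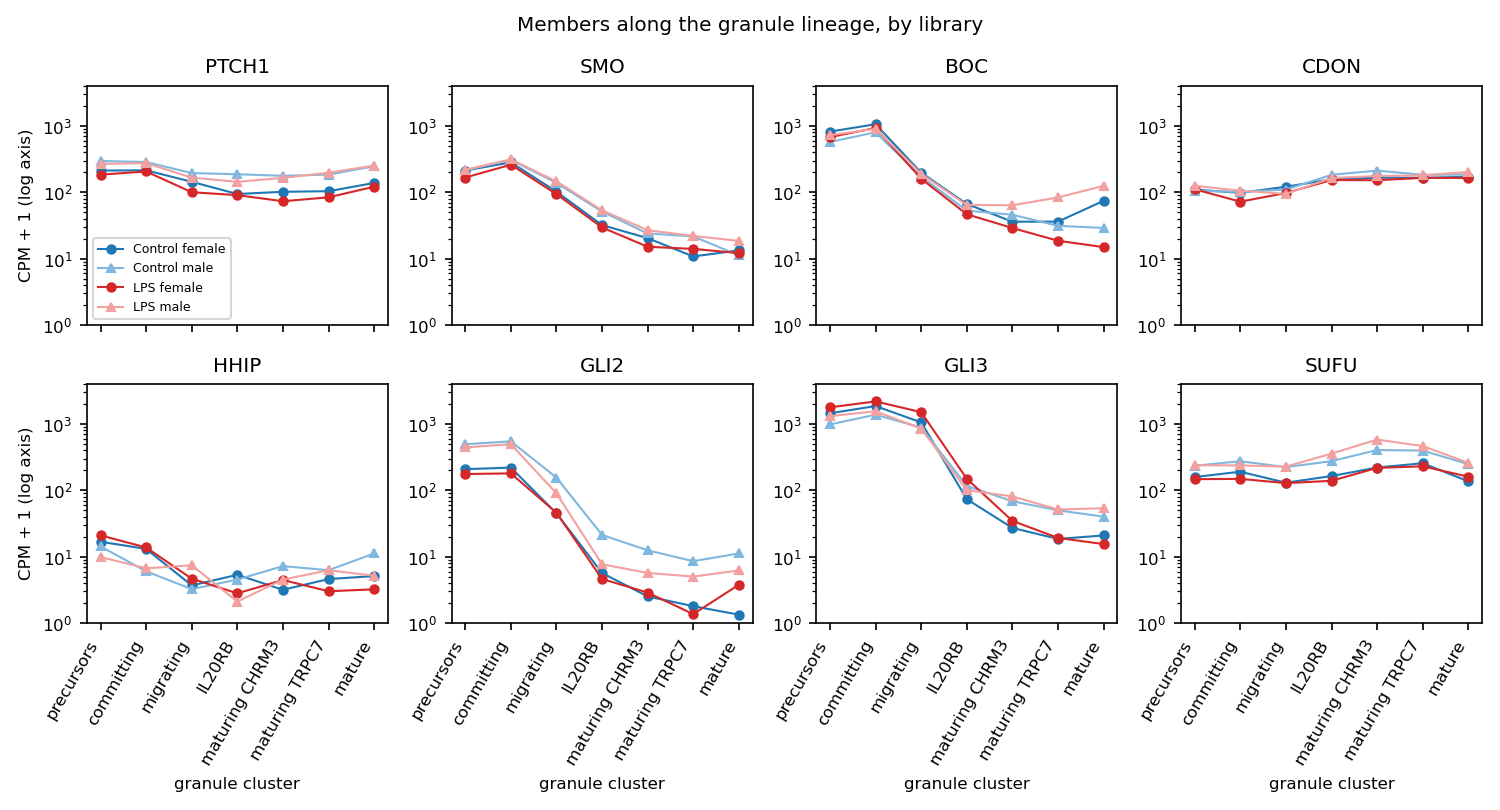
CPM + 1 on a log axis for 8 members in 7 granule clusters, 1 line per library; circles are female and triangles male libraries, blue Control and red LPS. GLI2 and GLI3 drop from 330 and 1382 CPM in precursors to 4.65 and 31.6 CPM in mature cells, while PTCH1, CDON and SUFU stay at or above 71.5 CPM in every library.

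Bergmann glia and astrocytes were then pooled and set against the whole granule lineage. PTCH1 was higher in the glia by 1.12 ± 0.18 on the log2 scale, HHIP by 1.26 ± 0.05, GLI2 by 0.70 ± 0.44, SMO by 0.61 ± 0.26 and BOC by 0.57 ± 0.22, each in 4 of 4 libraries. CDON was lower by far, at -2.22 ± 0.69, and SUFU lower at -0.51 ± 0.10, both in 4 of 4 libraries. The glial level of CDON was not far from that expected from free RNA. It was 27.7 against 20.6 CPM in Bergmann glia and 43.8 against 23.6 CPM in astrocytes, so the size of the CDON ratio is uncertain. GLI3, at -0.25 ± 0.36, did not keep 1 direction. The granule lineage includes its mature cells. Against proliferating precursors alone, the glia had 15.0 CPM of HHIP where precursors had 14.5 CPM. The glia had less SMO (120 against 203 CPM), BOC (341.5 against 699.6 CPM) and GLI2 (136 against 330 CPM). PTCH1 stayed higher in the pooled glia (370.1 against 239.7 CPM). That excess lay in Bergmann glia, at a mean of 524 CPM. Astrocytes had 140.3, 271.4, 176.6 and 277.1 CPM of PTCH1, above the 211.9, 295.7, 184 and 267.2 CPM of precursors only in the LPS male. HHIP was seen in 1.42% of these glia at 1000 UMIs per nucleus.

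Counting nuclei rather than molecules gave a like order. Each nucleus was thinned to 1000 UMIs, and shallower nuclei were left out, which in the granule lineage were 666 of the controls and 149 of the LPS group. A UMI of GLI3 was then found in 77.2% of 2546 committing nuclei (exact 95% interval 75.5 to 78.8%). By library that share was 79.6, 69.9, 82.8 and 72.9%, so the interval of pooled nuclei does not cover the spread between fetuses. The pooled shares were 70.5% of 1901 precursors and 4.04% of 2845 mature granule nuclei. In the class of microglia and macrophages, where neither GLI factor is a known feature, the share for GLI3 was 7.91% of 253 nuclei. Median depth before thinning was 2776 UMIs in committing, 3323 in mature and 3294 in microglial and macrophage nuclei, and the unthinned shares were 90.8, 11.5 and 15.0%.

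For GLI2 the thinned shares were 25.4% of precursors, 15.6% of 1592 Bergmann glia, 0.457% of mature granule nuclei and 0.791% of microglia and macrophages. The unthinned ones were 60.9, 39.4, 1.08 and 4.89%. By library the thinned share was 19.3, 36.4, 17.4 and 37.8% in precursors and 11.6, 20.3, 7.23 and 23.5% in Bergmann glia. These ranges overlap, with precursors higher in each library. Median depth was 4097 UMIs in precursors and 3767 in Bergmann glia. PTCH1 was seen in 37.4% of Bergmann glia, 36.9% of 241 proliferating glia, 19.8% of precursors and 6.72% of microglia and macrophages, with unthinned shares of 72.4, 80.8, 55.3 and 19.5%. Proliferating glia were deeper, at 5953 UMIs. HHIP was seen in 8.89% of 461 oligodendrocyte-lineage nuclei and in 0 of 253 microglia and macrophages, for which the exact 95% interval reaches 1.45%. Unthinned, these shares were 19.3 and 0.752%, and the median depth of the oligodendrocyte lineage was 4694 UMIs.

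Nuclei with UMIs of PTCH1 and of GLI2 or GLI3 at once were counted, as RNA of the receptor and of an effector was found together. At 1000 UMIs such nuclei were 20.7% of proliferating glia, 17.4% of committing cells, 16.8% of Bergmann glia and 15.5% of precursors. They were 1.16% of mature granule nuclei and 0.395% of microglia and macrophages. Counted singly in proliferating glia, committing cells, Bergmann glia and precursors, PTCH1 was seen in 36.9, 20.5, 37.4 and 19.8%. GLI2 or GLI3 was seen in 50.6, 83.6, 42.4 and 78.2% in the same order. The joint shares depend on the single ones, and whether both RNAs occurred together beyond them was not tested. These shares depend on depth, and 1000 UMIs miss most molecules of a nucleus. Free RNA and doublets can add to them, and their part was not estimated. Called doublets were 17.96% of proliferating glia, 3.25% of committing cells, 13.95% of Bergmann glia, 10.06% of precursors and 2.25% of mature granule nuclei.

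The members also differed in which other genes they ran with. Pearson's r was taken over 72 points, 18 classes in 4 libraries, on log2(CPM + 1) centred within library, for genes with at least 20 CPM in some class. The points share libraries and depth, so r is a description. SMO, BOC, GLI2 and GLI3 were tied to each other, with r of 0.80 to 0.90 for the 6 pairs. GLI3 was the gene most like SMO of all at 0.90, and GLI2 the one most like BOC at 0.86. SDC2, a heparan sulphate proteoglycan of the cell surface, was the gene most like GLI2 at 0.92, and LAMA2, a laminin chain, the most like GLI3 at 0.91.

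PTCH1 was nearest to CARMIL1 and to IFT74, a part of the ciliary transport machinery, both at 0.77. CDON was nearest to EFNA5 at 0.86, and its r was -0.44 with GLI2 and -0.34 with BOC. SUFU was nearest to WDFY3 at 0.77, with r between -0.40 and 0.16 to the other members. HHIP was nearest to ENSMMUG00000046163, a gene without a symbol, at 0.68 and to TMEM108 at 0.66.

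The ligand was found where it is known to be made. SHH (Sonic hedgehog) had 20.9, 45.9, 13.0 and 15.7 CPM in Purkinje cells, from 39 UMIs in 130 nuclei, and at most 0.36 CPM on average in any other class tested. Both LPS values lay below both controls, but they came from only 25 and 18 nuclei. Among all genes tested in Purkinje cells, the groups did not overlap in 18.6%. So few UMIs do not settle whether SHH differed with LPS. The mean of DHH was at most 3.79 CPM and that of IHH at most 1.17 CPM in any class tested.

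GLI1, the target gene most often read as a sign of active signalling, had 14.0, 25.5, 8.397 and 35.3 CPM in Bergmann glia. Proliferating glia had 9.30 ± 3.67 CPM and precursors 6.01 ± 3.95 CPM, from 16 and 42 UMIs. In astrocytes GLI1 was at 1.44 ± 1.52 CPM, and mature granule cells held 2 UMIs. GLI1 thus stood highest in the class where PTCH1 was highest.

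Of the 42 other Hedgehog pathway genes listed, 38 were found by symbol and 30 had at least 10 CPM in precursors or mature granule cells. Of these 30, 19 were higher in precursors in 4 of 4 libraries and 6 were lower in 4 of 4, with a median log2 ratio of 0.53. Over the 9813 genes of the same level the numbers were 4758 and 2046, with a median of 0.30. Of 10 genes for the cilium and transduction, 9 were higher in precursors and 1 lower, each in 4 of 4 libraries. Of 9 kinases and degradation genes, 3 were higher and 2 lower.

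LPS-exposed and control fetuses were compared with edgeR's quasi-likelihood test on UMIs summed per class and library, in 19 classes with at least 10 nuclei in every library. The granule lineage counts as 1 of these classes beside its 7 clusters, so the classes share nuclei. A call needed a log2 fold change past 0.25 in either direction and a p, adjusted after Benjamini and Hochberg, under 0.1. The standard error (SE) beside an edgeR fold change was derived from that fold change and the F statistic of the test. No member was called in any class, 0 of 133 tests of a member in a class, and 0% of all 178171 tests were called. At an unadjusted p under 0.05 there were 4 of the 133 tests and 885 of all, the latter far below a share of 0.05. The fit held no term for sex, and libraries of the same sex deviated together (r of 0.42 to 0.73 over the classes). The absence of calls therefore does not show that levels were equal. DESeq2 called 11 genes over the 19 classes, 0 of them members, and 1 test of a member had an unadjusted p under 0.05 by DESeq2. GAS1 did not pass the filter on low counts in any class, while PTCH1, BOC, GLI3 and SUFU passed it in 19, CDON in 17, SMO in 16, GLI2 in 14 and HHIP in 10. With the sex of the fetus as a block, 120 genes were called over the 19 classes, 57 of them in PAX2 interneurons and 37 in the oligodendrocyte lineage, and 0 of them were members.

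In proliferating precursors, the cells that divide in response to the ligand, the level of PTCH1 was 211.9, 295.7, 184 and 267.2 CPM. The groups overlapped, and the log2 fold change was -0.15 ± 0.31 (SE, edgeR, adjusted p = 1.00). GLI2 in the same cells had a log2 fold change of -0.16 ± 0.56, SMO of -0.14 ± 0.27 and GLI3 of 0.36 ± 0.39, all with adjusted p of 1.00 by edgeR. Over the 8 members tested there, 4 were higher and 4 lower with LPS and the median was 0.00, as it was over all genes.

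In the whole granule lineage 6 of 8 members were lower and 2 higher with LPS, with a median log2 fold change of -0.06. GLI2 had the lowest value, -0.61 ± 0.56, from 50.7, 153.8, 51.5 and 79.0 CPM, where the male libraries differed and the female ones hardly did. GLI3 was at 0.16 ± 0.48, from 502.8, 448.4, 744.6 and 321.6 CPM. The granule lineage of the LPS male held 1437 mature nuclei out of 4351 and that of the other libraries 367 to 558, and the stages differ in both genes as given above. The part of this in the lineage-wide values was not tested further than by the stage-wise values.

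The other members in the granule lineage had log2 fold changes of -0.05 ± 0.42 for PTCH1, -0.25 ± 0.28 for SMO, -0.06 ± 0.29 for BOC, -0.0024 ± 0.28 for CDON, -0.11 ± 0.43 for HHIP and 0.07 ± 0.43 for SUFU. In Bergmann glia PTCH1 was at -0.05 ± 0.41. Each of these was smaller than its standard error.

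The 4 tests with an unadjusted p under 0.05 were spread over 4 classes. GLI2 in fibroblasts had 77.2, 212.1, 58.5 and 36.5 CPM, both LPS libraries being below both controls, with a log2 fold change of -1.50 ± 0.55 (edgeR, adjusted p = 0.999). The LPS male value came from 5 UMIs in 40 nuclei. Without the Control female library the log2 fold change was -2.04. HHIP in Golgi cells had 64.6, 22.8, 3.35 and 23.7 CPM from 40, 9, 2 and 3 UMIs, with overlap of the groups and a log2 fold change of -2.38 ± 1.02 (edgeR, adjusted p = 1.00). It was -1.17 without the LPS female and -3.59 without the LPS male library.

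GLI3 in Purkinje cells had 4.83, 20.4, 30.4 and 78.4 CPM, with both LPS libraries above both controls, and a log2 fold change of 2.03 ± 0.88 (edgeR, adjusted p = 1.00). It rested on 3, 8, 14 and 10 UMIs, and its mean of 33.5 CPM compares with 18.4 CPM expected from free RNA. The fold change was 1.38 without the Control female or 1.39 without the LPS male library, and 3.10 without the Control male. PTCH1 in molecular layer interneurons had 74.2, 193.6, 62.1 and 53.6 CPM, the LPS libraries lying below both controls, and a log2 fold change of -1.20 ± 0.50 (edgeR, adjusted p = 1.00). It was -0.50 without the Control male library, whose level was the highest. None of the 4 passed the adjustment with all libraries.

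In PAX2 interneurons, where HHIP had 66.9, 43.7, 75.5 and 9.81 CPM, the low value was that of the LPS male, from 7 UMIs. The groups overlapped and the log2 fold change was -0.33. Without the LPS female library it was -2.57.

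Over all classes, the libraries of the groups did not overlap in 11 of 133 tests of a member, 8.27%, 6 with LPS higher and 5 with LPS lower. Among all 178171 tests the share was 17.6%. Where both male libraries lie on one side of both female ones, the groups must overlap, so these shares leave out differences within a sex.

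Within each sex, LPS was set against Control as a description, chosen after the data had been seen. PTCH1 was lower with LPS in both sexes in 10 of 19 classes and higher in both in 2. GLI2 was lower in both in 6 of 14 classes and higher in both in 0. GLI3 was higher in both in 7 of 19 and lower in both in 4. BOC was lower in both in 4 classes and higher in both in 1. In the same order CDON had 4 and 3, HHIP 2 and 2, SMO 1 and 1, and SUFU 2 and 4. Over all members, both sexes were lower in 33 of 133 tests, 24.8%, and higher in 20, 15.0%, where all genes gave 23.6% and 24.5%. The classes share nuclei, and each sex has 1 fetus per group. The other pathway genes gave 515 tests with 0 calls by edgeR, 4 of them with an unadjusted p under 0.05, 203 higher and 312 lower with LPS. The granule lineage, with 8 higher and 27 lower, shares its nuclei with its 7 clusters, and the same genes of the same 4 fetuses recur in each class. These counts are therefore not independent, and no like count was made over all genes. Higher and lower were level in proliferating glia (13 and 13) and Golgi cells (11 and 11). More were higher in the IL20RB cluster (14 and 10) and in microglia and macrophages (10 and 9), and more were lower in every other class. The median log2 fold change of the pathway genes in the granule lineage was -0.11, and that of all genes 0.01. Over the classes the pathway median ran from -0.147 in the oligodendrocyte lineage to 0.0266 in the IL20RB cluster. That of all genes ran from -0.0167 in Purkinje cells to 0.0296 in microglia and macrophages.

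**Figure D5:**
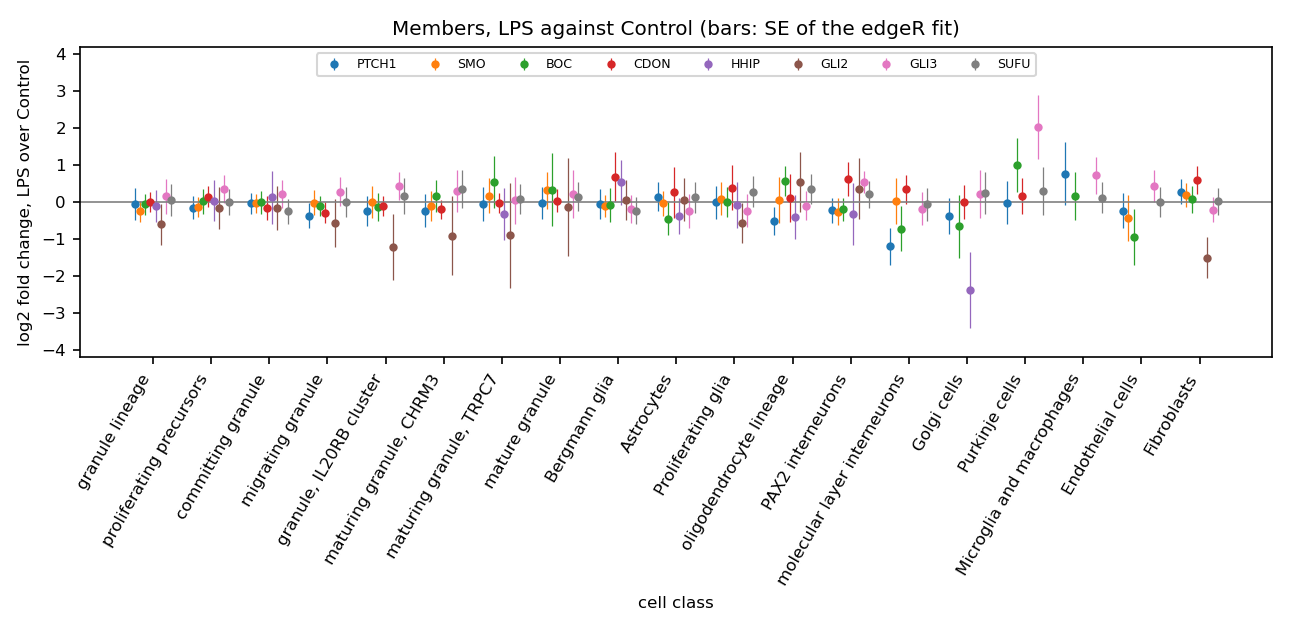
Log2 fold change of LPS over Control for each member in each class where it passed the filter, with the standard error derived from it and edgeR's F statistic. Values ran from -2.38 for HHIP in Golgi cells to 2.03 for GLI3 in Purkinje cells, and none passed the adjustment over all genes of the class.

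Male libraries were also set against female ones, after the levels had been seen and as a description. Among all 178171 tests, both male libraries were higher in 37.2% and both female ones in 25%, so that the sexes lay apart in most tests. PTCH1 was higher in both male libraries than in both female ones in 18 of 19 classes and SUFU in 19 of 19. The same held for GLI2 in 12 of the 14 where it passed the filter and for CDON in 11 of 17. The 12 include the maturing and mature granule clusters, where GLI2 lay on average below the level expected from free RNA. In free RNA itself GLI2 had 32.8, 99.6, 28.1 and 41.6 CPM. The mean of the male libraries was 1.77 times that of the female ones for PTCH1 in Bergmann glia, 2.45 times for GLI2 in precursors and 1.55 times for SUFU in precursors.

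GLI3 went both ways. It was lower in both male libraries in 9 of 19 classes, among them precursors, committing and migrating cells, astrocytes and Bergmann glia, with a ratio of 0.71 in precursors. It was higher in both male libraries in 4 classes, among them the maturing and mature granule clusters, where its level was near that of free RNA.

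Over the members, both male libraries were higher in 77 of 133 tests, 57.9%, and both female ones in 16, 12.03%. The female and male libraries also differed in other ways. The mean share of mitochondrial UMIs was 0.208, 0.0196, 0.171 and 0.0277%, and depth was lower in the male libraries. Sex, depth and mitochondrial share cannot be told apart here, and their part in the levels was not tested.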

How the data were processed

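The authors aligned the reads with Cell Ranger to Mmul_8.0.1, introns included, and deposited raw UMI counts per gene and barcode. The submitters' processing notes give version 4 of Cell Ranger and a protocol label gives 5.0. A barcode was kept as a nucleus from 500 genes upward, unless mitochondrial UMIs passed 5%. The libraries were integrated with Seurat 5.3.0 (2000 variable features without the Hedgehog genes, 30 dimensions, resolution 0.5), and clusters were named from marker lists. Doublets called by Scrublet were kept, and their removal was an alternative. Free RNA was estimated from barcodes with at most 100 UMIs. Counts were summed per class and library, given as CPM, and tested with edgeR 4.0.16 in R 4.3.3 (filterByExpr, TMM, quasi-likelihood, Benjamini-Hochberg over all genes of a class), with DESeq2 1.42.0 as an alternative. Scripts were tested on simulated data. Samples were grouped by treatment, and intervals and limits cover counting error only. All 9 members are named in the text, with the ligands and GLI1 and, for each member but GAS1, whose level was too low, genes among the 3 with the highest correlation. A further pathway gene that this naming rule holds is not reported here. The members and lists were chosen with earlier results of these data known. Libraries of the same sex deviated together from their group means, with r of 0.42 to 0.73 over the classes.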

Additional observations from a re-analysis of the deposited data

Results flagged for a closer look

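Over all 133 tests of a member in a class, 80 did not go the same way with LPS in both sexes, where all genes gave 51.9%. Among the fold changes given one by one in the report, for 11 the LPS fetus of one sex lay above its control and that of the other sex below it, as log2 differences in CPM with 1 fetus per sex and group. The difference between the sexes was not tested. In the granule lineage the male value was -0.953 for GLI2 against 0.0234 in the female. GLI3 had -0.479 in the male and 0.565 in the female, and SMO had -0.524 and 0.0205. HHIP had -0.325 and 0.117, SUFU 0.156 and -0.15, CDON 0.102 and -0.133, and PTCH1 0.00517 and -0.207 in the same order. In proliferating precursors SMO had 0.0261 in the male and -0.352 in the female. In Bergmann glia PTCH1 had -0.207 and 0.169. HHIP had -2.05 and 0.173 in PAX2 interneurons, and 0.058 and -3.91 in Golgi cells, where the LPS libraries held 2 and 3 UMIs.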

How the results depend on the processing

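Of 183 values under settings other than a left-out library, 165 kept their direction and their side of the threshold, or moved by less than the spread. Of the others, 2 reversed and 16 moved further. With 1 library left out, 113 of 143 values were kept in this sense, 22 reversed and 6 moved further. With free RNA subtracted, the log2 ratio of precursors to mature cells was 5.80 for SMO, 8.23 for GLI2 and 9.75 for GLI3. Little or no GLI2 and GLI3 was then left in mature cells, so the size of these ratios depends on the pseudocount. The subtracted ratio of glia to the granule lineage was 1.31 for PTCH1, -3.39 for CDON and 1.65 for HHIP. With a pseudocount of 5 CPM the ratios were 3.55 for SMO and 5.08 for GLI2 between stages and 0.91 for HHIP in glia. Without doublets they were -3.12 for CDON, 1.41 for HHIP and -0.65 for SUFU in glia. The LPS fold changes of CDON in the granule lineage and PTCH1 in Bergmann glia turned to 0.0204 and 0.0469 with free RNA subtracted.

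Over the 19 classes, 0 genes were called with all libraries by edgeR, 11 by DESeq2, 154 without a filter on low counts and 1 with free RNA subtracted. With sex as the replicate block 120 genes were called, 0 of them members, and the block changed no call of a member. The replicate numbers themselves pair no libraries. Leaving out 1 library gave 125 to 385 genes and 0 to 1 members. The cause was not tested.

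With 1 library left out, in a fit that assumes that the lone sample varies like the other group, LPS fold changes ran in the granule lineage from -0.58 to 0.33 for PTCH1, -0.22 to 0.15 for BOC, -0.19 to 0.16 for CDON, -0.29 to 0.0474 for HHIP, -0.36 to -0.12 for SMO, -1.15 to 0.31 for GLI2, -0.57 to 0.64 for GLI3 and -0.51 to 0.47 for SUFU. In precursors they ran from -0.42 to 0.066 for PTCH1, -0.32 to 0.0142 for SMO, -0.94 to 0.53 for GLI2 and 0.07 to 0.73 for GLI3, in Bergmann glia from -0.38 to 0.39 for PTCH1, in PAX2 interneurons from -2.57 to 0.47 for HHIP in fibroblasts from -2.04 to -0.62 for GLI2, in Golgi cells from -3.59 to -1.17 for HHIP (not fitted without the Control female), in Purkinje cells from 1.38 to 3.10 for GLI3 and in molecular layer interneurons from -1.68 to -0.50 for PTCH1. The stage ratio of SUFU ran from -0.11 to 0.00599. Some of these values rest on 5 or fewer UMIs in a library.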
